A study of Mus musculus with 4 samples.

Results

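Antibody heavy-chain variable (V) genes were examined in RNA from the bone marrow of mature and elderly mice. The members are the transcripts that GENCODE release M1 gives the biotype IG_V_gene on mouse chromosome 12. There were 112 of them among the 95883 transcripts of the deposited tables, 1 per gene. In release M1, 36 carry an Ighv symbol, 75 a Gm symbol and 1 (AB069917) another symbol. All 112 matched 1 RefSeq gene with an Ighv symbol, and the RefSeq symbol is used here. Both groups were male wild-type (WT) C57Bl/6 mice, aged 3 months (mature) or 24 months (elderly), with no treatment, and each group had 2 libraries. The titles in the labels call the libraries mouse 1 and mouse 2 of each age, whereas the labels' protocol and the study's methods give RNA from 3 or 4 mice per group. How many mice stand behind 1 library is therefore not settled, and the spread between libraries may be that of mice, of pools or of technical repeats. The study's methods describe cells sorted as negative for Ter119, CD31 and CD45 and positive for the leptin receptor (Lin-LEPR+), whereas the source in the labels is whole bone marrow.

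A heavy chain is encoded by 1 V gene joined to a D and a J segment and spliced to a constant region. The joining takes place in a developing B cell, on recombination signals next to each segment, and the cell and its descendants then transcribe that V gene at a high level. A clone of B cells or plasma cells therefore carries 1 joined V gene, but other clones can carry the same one. The mixture of V genes in a sample thus reflects its clones only in part, weighted by how much antibody RNA each cell makes. Shares of V genes given here are not shares of clones. In bulk RNA, fewer cells of a type and less RNA per cell cannot be told apart. CD45 is present on B cells, so a sort for CD45-negative cells is meant to leave them out.

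The members spanned 2426 kb of chromosome 12 (NCBI Build 37, mm9, chr12:114812453-117238672), 110 on the minus strand and 2 on the plus strand. RefSeq lists 104 as V segments and 8 as V segment pseudogenes. Models with a leader exon and a V exon were given for 77 members and single-exon models for 35, with exonic lengths of 90 to 360 bases and a median of 348. No member shared an exonic base with another transcript, so every base of all 112 could be counted.

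V gene promoters carry an octamer, ATGCAAAT, which is bound by the POU factors Oct-1 and Oct-2. It was searched on both strands in the 250 bases before the start of each transcript model. It was found in 85 of 112 members (75.9%), each time on the strand of the gene, and in 1365 of 86883 distinct windows of all transcripts (1.57%). In the 54 members with the octamer whose model starts at ATG, its first base lay 103 to 136 bases before that start. None of the 10 members of family IGHV2 held these letters in the window, which includes Ighv2-2, and neither did Ighv14-4 or Ighv1-26. A match describes these letters only. Stretches of 70 bases are shown for the members that led mature 1 (Ighv5-17), mature 2 (Ighv1-74), elderly 2 (Ighv1-58) and, tied with Ighv14-4, elderly 1 (Ighv3-6), on the gene's strand, with the octamer in capitals.
Ighv5-17, chr12:115097919-115097988, minus strand: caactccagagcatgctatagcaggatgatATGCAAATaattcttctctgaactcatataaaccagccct
Ighv1-74, chr12:117041361-117041430, minus strand: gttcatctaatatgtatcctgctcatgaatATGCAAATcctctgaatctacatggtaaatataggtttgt
Ighv3-6, chr12:115526863-115526932, minus strand: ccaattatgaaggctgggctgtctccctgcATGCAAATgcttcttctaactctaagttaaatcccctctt
Ighv1-58, chr12:116550878-116550947, minus strand: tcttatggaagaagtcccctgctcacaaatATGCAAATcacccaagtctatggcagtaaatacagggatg

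On its other side, a V gene that can be joined is followed by a recombination signal: a heptamer, a spacer of about 23 bases, and a nonamer. The exact heptamer CACAGTG, on either strand, lay in the first 20 bases after the model of 78 members (69.6%) and after 666 of 85707 distinct transcript ends (0.777%). Only spacers of 22, 23 and 24 bases were tried, so no other length could be found. Counted from the heptamer to the best match of the nonamer ACAAAAACC, the spacer of those members was 22 bases in 46, 23 bases in 30 and 24 bases in 2. The signals of 5 members that the results turn on are shown on the gene's strand, with the heptamer and the nonamer in capitals, and the heptamer of Ighv14-4 is not an exact match.
Ighv1-58, chr12:116550339-116550376, minus strand: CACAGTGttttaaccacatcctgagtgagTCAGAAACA
Ighv14-4, chr12:115414611-115414648, minus strand: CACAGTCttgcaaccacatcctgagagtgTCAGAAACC
Ighv3-6, chr12:115526324-115526362, minus strand: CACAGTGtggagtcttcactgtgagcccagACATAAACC
Ighv9-1, chr12:115332101-115332138, minus strand: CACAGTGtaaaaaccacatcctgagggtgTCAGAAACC
Ighv1-69, chr12:116861334-116861371, minus strand: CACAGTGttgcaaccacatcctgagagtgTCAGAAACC

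V genes are near copies of each other, which limits how reads of 40 bases can be placed. Over the members, a median of 65.8% of the exonic 40-base windows occurred once in the genome, 10 members had only such windows, 32 had less than 50%, and Ighv1-62-2, Ighv1-71 and Ighv1-72 had none. How reads that fit several places were counted is not given in the sources used here, so a count of a member with few unique windows may be split with, or lost to, its copies. The V exons of 3 members, up to their first 300 bases, are shown 5′ to 3′, with capitals marking bases that lie in at least 1 window of 40 bases found more than once in the genome. Ighv1-58 had 62 such bases of 302, Ighv14-4 had 205 of 299 and Ighv1-69 had 299 of 302.
Ighv1-58, chr12:116550379-116550678, minus strand: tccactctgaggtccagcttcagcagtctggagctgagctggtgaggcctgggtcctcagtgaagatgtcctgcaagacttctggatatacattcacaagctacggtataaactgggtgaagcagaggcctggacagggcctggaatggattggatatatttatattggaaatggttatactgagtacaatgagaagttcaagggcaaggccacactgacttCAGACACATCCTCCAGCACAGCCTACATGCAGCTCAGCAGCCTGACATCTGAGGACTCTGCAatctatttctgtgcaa
Ighv14-4, chr12:115414655-115414953, minus strand: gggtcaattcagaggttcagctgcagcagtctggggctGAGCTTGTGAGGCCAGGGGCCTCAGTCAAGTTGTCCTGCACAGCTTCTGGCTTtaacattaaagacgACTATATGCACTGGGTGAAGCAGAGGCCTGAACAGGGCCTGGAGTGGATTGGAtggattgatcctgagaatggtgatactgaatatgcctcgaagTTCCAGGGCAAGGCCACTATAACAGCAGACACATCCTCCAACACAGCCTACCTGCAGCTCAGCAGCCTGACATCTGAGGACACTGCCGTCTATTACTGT
Ighv1-69, chr12:116861374-116861673, minus strand: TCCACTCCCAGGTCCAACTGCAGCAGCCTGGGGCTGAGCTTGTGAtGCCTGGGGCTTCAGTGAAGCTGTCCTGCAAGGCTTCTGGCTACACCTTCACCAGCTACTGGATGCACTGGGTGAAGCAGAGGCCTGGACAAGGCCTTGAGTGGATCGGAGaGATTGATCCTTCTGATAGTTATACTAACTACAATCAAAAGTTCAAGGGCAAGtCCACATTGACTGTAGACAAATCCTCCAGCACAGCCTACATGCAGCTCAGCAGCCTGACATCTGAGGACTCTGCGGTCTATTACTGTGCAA

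The libraries held 10472117 to 15650518 counts. The sorted type was checked with 10 genes of LEPR+ stromal cells, among them Lepr, Cxcl12 and Kitl: all 10 were counted in every library, and their summed level was 29230 and 30250 CPM at 3 months and 18500 and 27800 CPM at 24 months. CPM are counts per 1000000 counts of the library, with the library size scaled by its TMM factor. A count of 0 in a library allows up to 3 counts, between 0.205 and 0.267 CPM here, and a member is called detected in a library above 3 counts. Intervals for single libraries are exact 95% intervals and cover counting error only.

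The summed level of the heavy-chain V genes was 15.3-fold higher in elderly than in mature libraries. The 112 members together had 136 counts in mature 1, 87 in mature 2, 1553 in elderly 1 and 2195 in elderly 2. On the CPM scale this was 11.5 (95% interval 9.60 to 13.5) and 7.40 (5.93 to 9.13) in the mature libraries, against 138 (132 to 145) and 150.0 (144 to 156) in the elderly ones. Both elderly libraries thus lay above both mature ones, with no overlap. The mature mean was 9.43 ± 2.86 CPM (SD, n = 2) and the elderly mean 144 ± 8.20 CPM (SD, n = 2), a log2 ratio of 3.94. No p is given for this sum, and an exact permutation test of 2 against 2 could not go below 0.33.

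V gene counts moved with those of Ighm. Ighm, the constant region of IgM, had 873, 396, 8932 and 12401 counts in mature 1, mature 2, elderly 1 and elderly 2. For 100 Ighm counts there were 15.6 V gene counts (12.9 to 18.7) in mature 1, 22 (17.2 to 27.8) in mature 2, 17.4 (16.5 to 18.4) in elderly 1 and 17.7 (16.9 to 18.5) in elderly 2. The 4 intervals, which cover counting error only, overlapped pairwise, so a difference in this ratio between the ages was not detectable at this depth. Other constant regions are not in the ratio. Ighg1 and Ighg2c had 703 and 835 counts in elderly 1, and Ighg2c had 188 in mature 2. The ratio therefore does not describe the constant regions as a whole.

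**Figure D1:**
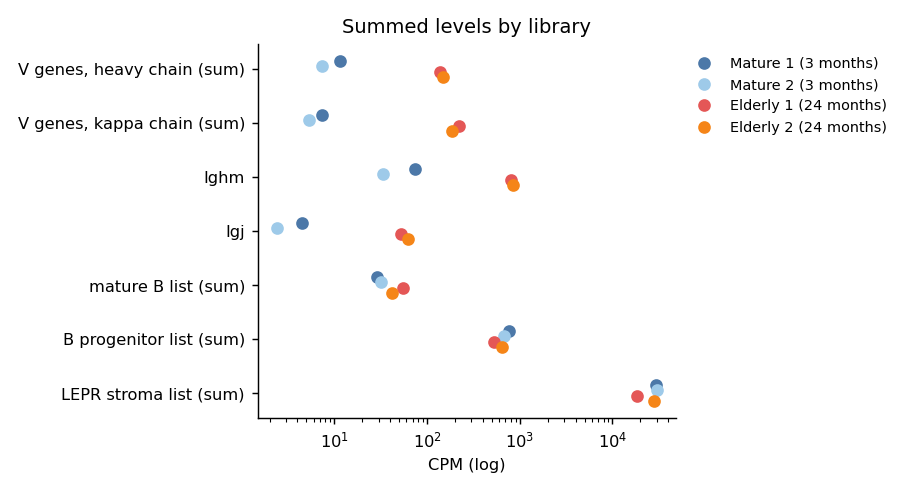
Summed level (CPM, log axis) of the heavy-chain V genes, the IG_V_gene transcripts of chromosome 6 (labelled kappa chain), 2 single genes (Ighm and Igj) and 3 marker lists, with 1 point per library. The V gene sums, Ighm and Igj lie higher in both elderly libraries, with heavy-chain V genes at 138 and 150.0 against 11.5 and 7.40 CPM, whereas the sums of the LEPR stroma list and of the B progenitor list, most of which is Ebf1, do not.

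More V genes were seen in the elderly libraries, and at equal numbers of V gene counts the outcome depended on the limit of detection. Of the 112 members, 36 and 23 had at least 1 count in mature 1 and mature 2, and 63 and 62 in elderly 1 and elderly 2. Above 3 counts there were 12 and 4 against 35 and 33, or 8.0 ± 5.66 (SD, n = 2) in mature and 34.0 ± 1.41 (SD, n = 2) in elderly libraries. At 87 V gene counts per library, the total of mature 2, the expected number of members with at least 1 count was 32.1 in mature 1, 23 in mature 2, 26.6 in elderly 1 and 19.2 in elderly 2. By that limit the 2 ages overlapped. The expected number above 3 counts was 4.37 and 4.0 at 3 months against 9.15 and 6.67 at 24 months, without overlap.

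Of the 112 members, 26 had no count in any library, 86 had at least 1, and 56 were detected in at least 1 library. In the elderly libraries together 53 members were detected, and in the mature ones 16. Ighv6-6, Ighv8-5 and Ighv1-76 were detected in mature 1 alone, at 6, 4 and 4 counts, close to the limit of 3. Ighv6-6 also had 3 counts in elderly 1, and Ighv1-76 had 1 in elderly 2. No member was above 3 counts in all 4 libraries, while 11 had at least 1 count in each. The pseudogenes stayed low: Ighv7-3 had 13 counts and Ighv1-13 had 6 counts in elderly 1, and the other 6 had at most 2 in any library. The median share of unique windows was 65.8% in the 86 members with counts and 64.5% in the 26 without.

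Each library was led by other V genes, and in 3 of the 4 the highest member held 25.7% or more of the V gene counts. In mature 1 the highest member was Ighv5-17 (Gm16609 in release M1) with 35 counts, or 25.7% of V gene counts (18.6 to 33.9). In mature 2 it was Ighv1-74 (Gm16710) with 41 counts, or 47.1% (36.3 to 58.1). In elderly 1, Ighv14-4 (Gm16841) and Ighv3-6 (Gm16932) were tied at 153 counts, or 9.85% each (8.41 to 11.4). In elderly 2, Ighv1-58 (Gm16633) had 745 counts, or 33.9% (32 to 36). The difference between the ages was smaller than the spread between replicates: the highest member held 36.4 ± 15.1% (SD, n = 2) in mature and 21.9 ± 17.0% (SD, n = 2) in elderly libraries.

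The effective number of V genes (the inverse Simpson index, the number of equally used genes that would give the same concentration) showed the same. It was 11.6 in mature 1, 4.14 in mature 2, 18.4 in elderly 1 and 6.38 in elderly 2. The 5 highest members held 42.7%, 70.1%, 41.4% and 65.3% of V gene counts in that order of libraries, and 8, 2, 7 and 3 members were enough for 50% of them. Concentration thus differed between the 2 libraries of each age and did not separate the ages. With 2 libraries per age, this does not show an effect of the replicate number.

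**Figure D2:**
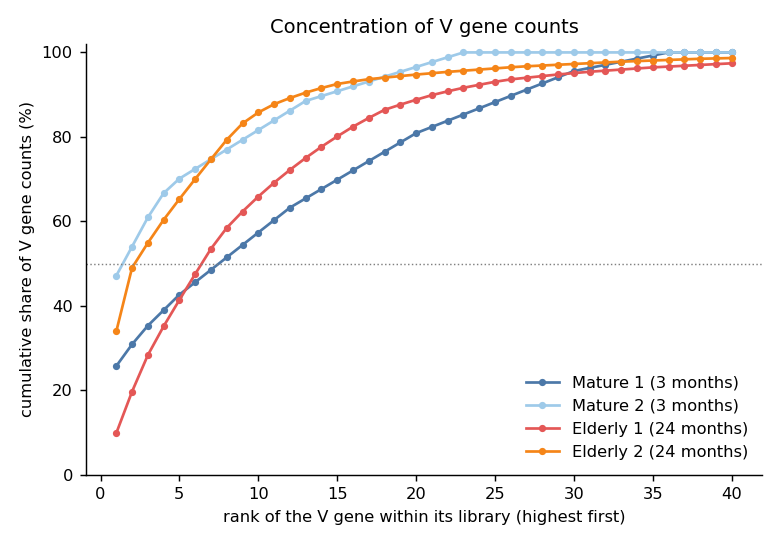
Cumulative share of V gene counts (percent) against the rank of the V gene within its library, 1 line per library, with the dotted line at 50%. Mature 2 and elderly 2 rise steeply and pass 50% at ranks 2 and 3, mature 1 and elderly 1 at ranks 8 and 7.

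The 2 mature libraries had no detected V gene in common. Above 3 counts, 0 members were shared by mature 1 (12 detected) and mature 2 (4 detected). The elderly libraries shared 15, which was 42.9% of those in elderly 1 and 45.5% of those in elderly 2. Between the ages, mature 1 shared 5 members with elderly 1 (41.7% and 14.3% of the 2 lists) and 8 with elderly 2 (66.7% and 24.2%). Mature 2 shared 3 with elderly 1 (75.0% and 8.57%) and 2 with elderly 2 (50% and 6.06%). The shares of the short mature lists found in elderly libraries were above the share that the mature libraries had in common. List lengths differed by up to 35 against 4, and a longer list shares more members by its length alone. Lists of 12 and 4 among 112 members can share 0 for the same reason. No share expected from list length was computed, so no conclusion is drawn from these overlaps.

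At a threshold of 1 count, the mature pair shared 11 members and the elderly pair 42 (66.7% and 67.7%). Among the 20 highest members of each library, 4 were shared by the mature pair and 9 by the elderly pair, with 4 to 7 between the ages, although the last place was tied among 8 members in mature 1 and 10 in mature 2. Summing for each member the smaller of its 2 shares of V gene counts gave the part of the mixture in common. It was 30.9% for the elderly pair, 16.5% for the mature pair and 13.9% to 22.9% for the 4 pairs between ages.

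The elderly libraries differed widely in single V genes. Of the 53 members detected in either, 20 were detected in elderly 1 alone and 18 in elderly 2 alone. With a count at or under 3 set to 3 counts, 26 differed over 4-fold and 15 over 10-fold in CPM between the 2 libraries. Ighv1-58 was the largest case, with 1 count in elderly 1 and 745 in elderly 2 (0.0891 and 50.9 CPM). In the other direction, Ighv9-1 (Gm16987) had 134 counts and Ighv4-1 (Gm16612) had 97 in elderly 1 and 0 in elderly 2. The summed level of the 2 libraries differed by far less, at 138 and 150.0 CPM.

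**Figure D3:**
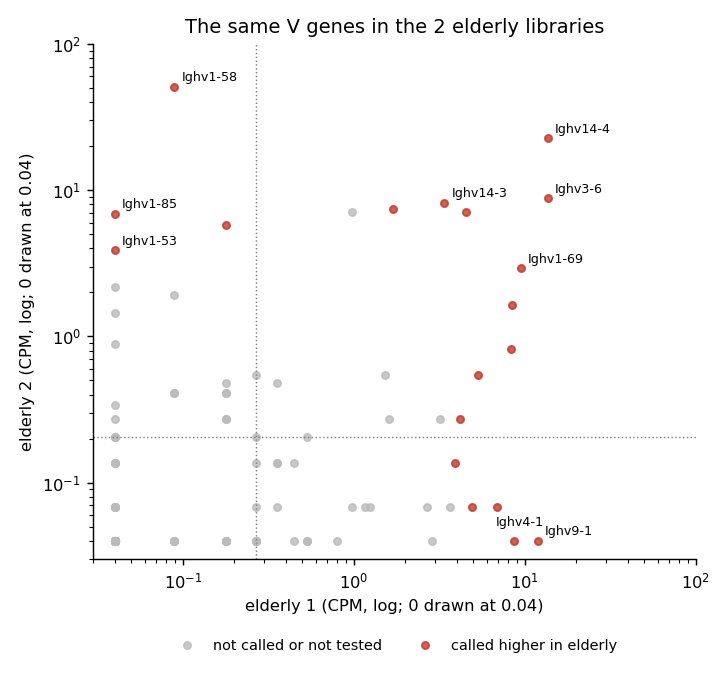
Level of each heavy-chain V gene in elderly 1 (x axis) and elderly 2 (y axis), in CPM on log axes with 0 drawn at 0.04, and dotted lines at the level of 3 counts. Red points are the 19 members called higher in elderly libraries: 10 lie above both lines, such as Ighv14-4 and Ighv3-6, and 9 lie beyond the line of 1 library only, such as Ighv1-58 and Ighv9-1.

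V genes are grouped into families by sequence, and the family number is the first number in the symbol. IGHV1, the largest family with 56 of the 112 members, held 44.9% of V gene counts in mature 1, 85.1% in mature 2, 35.2% in elderly 1 and 57.9% in elderly 2. Its share thus varied more within an age than between the ages. Without Ighv1-58, its share in elderly 2 was 36.3%. IGHV14 (4 members) held 6.62% and 3.45% at 3 months against 13.4% and 20.9% at 24 months. Most of the latter came from Ighv14-4 and Ighv14-3.

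Several smaller families drew most of their counts in a library from 1 member. IGHV5 (10 members) held 30.9% in mature 1 through Ighv5-17, against 5.75%, 10.2% and 8.20% elsewhere. IGHV9 (4 members) held 10.4% in elderly 1 through Ighv9-1 and 0.0911% in elderly 2, with 1 and 3 counts in the mature libraries. IGHV11 (2 members) had no mature count, 19 counts in elderly 1 and 109 in elderly 2. IGHV3 (5 members) held 10.1% and 6.33% in the elderly libraries, where it had 157 and 139 counts against 3 and 0 in the mature ones. IGHV13 and IGHV16, with 1 member each, had no count.

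**Figure D4:**
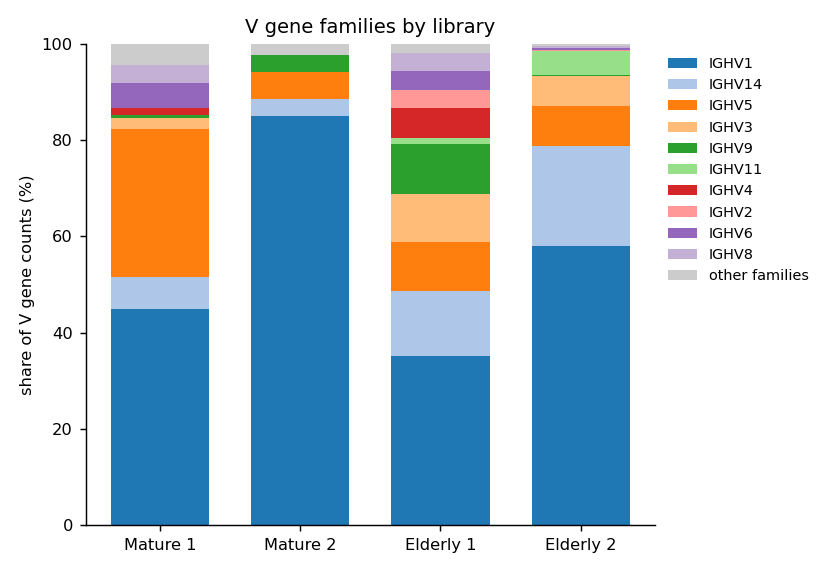
Share of V gene counts (percent) by family, as 1 stacked bar per library. IGHV1 takes between 35.2% (elderly 1) and 85.1% (mature 2), and IGHV14 takes 6.62% and 3.45% at 3 months and 13.4% and 20.9% at 24 months.

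The position of a V gene was given as its order from the D segments, near the low-coordinate end, to the distal end of the locus. Split into 4 blocks of 28 members, the blocks held 38.2%, 22.8%, 23.5% and 15.4% of V gene counts in mature 1, from proximal to distal. In mature 2 the most distal block held 77.0%, through Ighv1-74 and the neighbouring Ighv1-78 and Ighv1-80. In elderly 1 the second block was highest (43.2%), and in elderly 2 the third (48.4%), through Ighv1-58. Detected members lay in all 4 blocks in mature 1 and both elderly libraries, with 7, 15, 6 and 7 in elderly 1 and 8, 10, 9 and 6 in elderly 2, and in the last block alone in mature 2.

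**Figure D5:**
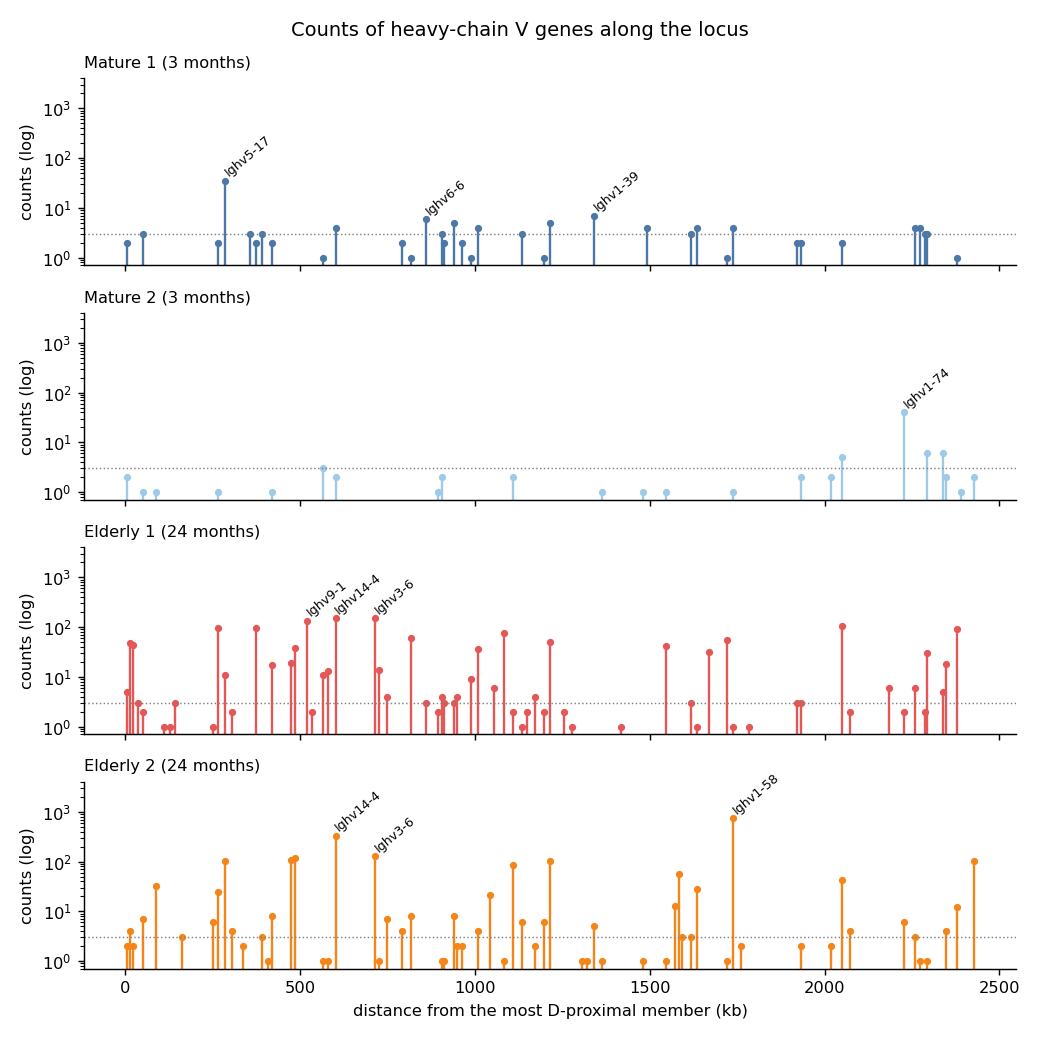
Counts (log axis) of each V gene with at least 1 count against its distance in kb from the most D-proximal member, 1 panel per library, with the dotted line at 3 counts and the highest members named. Counts lie along the whole 2426 kb in the elderly libraries, and a different V gene stands highest in each library except that Ighv14-4 and Ighv3-6 are among the 3 highest in both elderly ones.

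In the comparison of the ages, 19 V genes were called higher in elderly libraries and 0 lower. The test was edgeR's quasi-likelihood test over all 42413 transcripts with more than 2 counts in all, and a call needed a Benjamini-Hochberg adjusted p under 0.05 and a log2 fold change beyond 2 in either direction. Of the 112 members 70 were tested, and the 19 calls were 27.1% of them, where 0.712% of all transcripts tested were called higher and 0.099% lower. At an unadjusted p under 0.05, 31 members were higher and 1 lower. Of the 70 members, 42 had at most 2 counts in the mature libraries together and were tested for their elderly counts, so a direction among them was set by the filter. Both elderly libraries were above both mature ones for 24 of 70 members (34.3%), against 20.4% of all transcripts, and both mature above both elderly for 0, against 17.4%. The 70 include those 42, so the filter sets part of this comparison too and no conclusion is drawn from it. Of the 19 called members, 8 had no mature count and 7 had 1 to 3 in the mature libraries together.

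The median fitted log2 fold change was 3.74 over the 70 members and -0.00307 over all transcripts. The 70 include the 42 members tested for their elderly counts, so the filter sets part of this median and no conclusion is drawn from it. With members at 0 in an age set to their limit of 3 counts per library, the members' median was 1.01. No matching value is given for all transcripts. The calls rested on few libraries: with DESeq2 8 members were called higher, with edgeR's stricter filter 7 of the 8 it left, and with library size alone as the scale 8. Without elderly 1 or without elderly 2 no member was called, nor was any other transcript in the table. Those fits have 1 elderly library, which is assumed to vary like the mature ones, and 1 residual degree of freedom. With the same degrees of freedom, 23 members were called higher without mature 1 and 22 without mature 2.

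Of the 10 called members detected in both elderly libraries, Ighv14-4 and Ighv3-6 had the highest levels. Ighv14-4 (chr12:115414655-115415073) had 4 and 2 counts at 3 months and 153 and 331 at 24 months, so that the groups did not overlap. The mature mean was 0.253 ± 0.118 CPM (SD, n = 2) and the elderly one 18.1 ± 6.35 CPM (SD, n = 2), with a log2 fold change of 6.11 (SE 0.516, edgeR adjusted p = 2.09e-07). Ighv3-6 (chr12:115526363-115526793) had 0 and 0 against 153 and 129 counts. Its elderly mean of 11.2 ± 3.41 CPM (SD, n = 2) was at least 44.2-fold higher than 3 counts per mature library (edgeR adjusted p = 4.97e-07). Ighv14-3 had 0 and 0 against 38 and 120 counts, at least 22.8-fold higher (edgeR adjusted p = 3.31e-05). Ighv14-3 and Ighv14-4 belong to the same small family, and each had its closest member in Ighv14-1, at 96.1% and 95.4% identity.

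A further 4 called members were detected in both elderly libraries and stayed called in DESeq2, under the stricter filter and with library size alone. Ighv11-2 had 0 and 0 against 19 and 108 counts, at least 17.9-fold higher (edgeR adjusted p = 2.30e-04). Ighv11-1, the other member of its family, is 98.7% identical, and 44.4% of the windows of Ighv11-2 were unique. Ighv1-26 (Gm16717) had 5 and 0 against 51 and 103 counts, a log2 fold change of 4.72 (SE 0.70), and Ighv1-69 (Gm16708) had 2 and 5 against 106 and 43, one of 4.33 (SE 0.664). Ighv5-16 (Gm16632) had 2 and 1 against 95 and 24 counts, a ratio of 36.2 (counting interval 12.1 to 178). For these 4 members as well the groups did not overlap.

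Other called members rested on 1 elderly library. Ighv1-58 (chr12:116550377-116550807) had 4 and 1 counts at 3 months and 1 and 745 at 24 months, so that elderly 1 lay within the mature range. Mean levels were 0.211 ± 0.178 CPM (SD, n = 2) at 3 months and 25.5 ± 35.9 CPM (SD, n = 2) at 24 months. The fitted log2 fold change of 6.86 (SE 1.3, edgeR adjusted p = 0.00400) turned to -1.16 without elderly 2.

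Ighv9-1 had 0, 0, 134 and 0 counts in mature 1, mature 2, elderly 1 and elderly 2, with a mean of 5.97 ± 8.44 CPM (SD, n = 2) in elderly libraries, at least 23.5-fold higher (edgeR adjusted p = 0.0124). Ighv4-1, the only member of IGHV4, had 2, 0, 97 and 0 counts, and Ighv8-8 (Gm9740) had 1, 0, 55 and 1. Ighv1-53 (AB069917) had 0, 0, 0 and 57 counts, and Ighv1-85 had 0, 2, 0 and 101. In all, 9 of the 19 called members were at or under 3 counts in 1 of the elderly libraries, 5 of them in elderly 2 and 4 in elderly 1. Ighv9-1, Ighv4-1, Ighv1-85, Ighv1-58 and Ighv1-15 lost the call in the robust fit (edgeR adjusted p = 0.780 to 0.932), in DESeq2 and with library size alone.

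Ighv2-2 and Ighv6-3, also called, are the leading members of their families. Ighv2-2 (Gm16970), which led IGHV2, had 0, 0, 47 and 4 counts, at least 8.79-fold higher. Its copy Ighv2-4, with 98.0% identity, had no count. Ighv6-3 (Gm16930), which led IGHV6, had 1, 0, 60 and 8 counts, a ratio of 62.1 (counting interval 10.8 to 2490). Ighv5-4, Ighv1-15, Ighv1-18 and Ighv1-82 complete the 19, with at most 2 counts in the mature libraries together and their higher elderly library at 44 to 93 counts. The fitted log2 fold changes of the 19 ran from 4.33 to 10.12 and their adjusted p from 2.09e-07 to 0.0413. The 8 members at 0 in both mature libraries had limits of at least 7.67-fold to at least 44.2-fold. These limits use the elderly mean and do not cover the spread between the elderly libraries. Of the 8, Ighv5-4, Ighv9-1, Ighv1-15 and Ighv1-53 were at or under 3 counts in 1 elderly library. Of the 19, 16 have the octamer and 14 the exact heptamer in the windows described above, against 85 and 78 of all 112 members.

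Members that led a mature library did not differ in one direction. Ighv5-17 (chr12:115097360-115097827) had 35 and 0 counts at 3 months and 11 and 104 at 24 months, so the groups overlapped. Its log2 fold change was 1.47 (SE 0.830, edgeR adjusted p = 0.696), and -0.59 without elderly 2. Ighv1-74 (chr12:117040859-117041291) had 0 and 41 against 2 and 6 counts, a log2 fold change of -2.48 (SE 1.06, edgeR adjusted p = 0.460), and 4.96 without mature 2. Its unadjusted p of 0.0284 was the single one under 0.05 in the direction of lower in elderly.

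Other untested or uncalled members had few counts. Ighv1-50 (Gm16829) had 0, 1, 41 and 1 counts and missed the call (edgeR adjusted p = 0.0705), Ighv1-9 had 4, 0, 36 and 4, and Ighv1-78 (Gm16812) had 3, 6, 30 and 1. Ighv1-39 (7, 0, 0 and 5 counts), Ighv6-6 (6, 0, 3 and 0) and Ighv1-80 (0, 6, 5 and 0) were among the 3 highest of a mature library and had no more than 5 counts in an elderly one. The leading members of the remaining families with over 3 counts in a library were low too: Ighv7-3 had 0, 0, 13 and 1, Ighv12-3 had 2, 0, 0 and 4, Ighv10-1 had 3, 2, 4 and 1, and Ighv15-2 had 1, 0, 9 and 0 counts.

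Leaving out the 32 members with under 50% unique windows took away 6 of the 19 called members (Ighv2-2, Ighv11-2, Ighv1-26, Ighv1-53, Ighv1-69 and Ighv1-85). The remaining 80 members gave 10, 3, 29 and 24 detected members in mature 1, mature 2, elderly 1 and elderly 2. The highest member then held 30.2%, 53.9%, 12.1% and 43.1% of their counts in that order. This choice was made after seeing the data.

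Markers of B-lineage stages were read beside the V genes, and their part in the result was not tested. In the B progenitor list, 0 of 12 tested genes were called, and the summed level was 762, 681, 531 and 638 CPM in mature 1, mature 2, elderly 1 and elderly 2, of which Ebf1, a transcription factor also made by stromal cells, took 712, 642, 412 and 560 CPM. The other 13 genes of the list summed to 49.4, 39.4, 118 and 78.2 CPM, so that both elderly libraries lay above both mature ones. Rag1, which cuts the DNA at recombination signals, had 315, 235, 745 and 685 counts, a log2 fold change of 1.28 (SE 0.277, edgeR adjusted p = 0.0127) that is under the fold limit of a call. Its partner Rag2 had 3, 5, 12 and 4 counts. Igll1 and Vpreb1, also of this list, had 12, 16, 6 and 18 and 12, 2, 9 and 14 counts, overlapping between the ages. Cd79a, a chain of the B cell receptor, had 119, 109, 223 and 209. Dntt, which adds bases at the joins, was at 1 count in mature 1 and 0 elsewhere, with 60 countable bases.

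In the mature B list, 0 of 8 tested genes were called, at 28.8 and 32 CPM in mature against 55.2 and 42.1 CPM in elderly libraries. Their median log2 fold change was 0.906. Ms4a1, which encodes CD20, had 0, 0, 9 and 11 counts, whereas Fcer2a had 16, 8, 6 and 7 and Cd72 had 52, 29, 41 and 33. In the plasma cell list, 2 of 10 tested genes were called higher and 0 lower, at 174 and 142 CPM against 209 and 210 CPM. They were Igj, the J chain that joins IgM and IgA units, with 53, 28, 595 and 914 counts (log2 fold change 4.07, SE 0.338, edgeR adjusted p = 1.90e-07), and Prdm1, the plasma cell regulator Blimp-1, with 0, 0, 45 and 51 counts (edgeR adjusted p = 9.03e-05). Sdc1 and Xbp1, also plasma cell genes, were at 890, 734, 470 and 841 and at 677, 597, 502 and 636 counts. In CPM, Sdc1 was at 74.91, 62.45, 41.88 and 57.46, and Xbp1 at 56.98, 50.79, 44.73 and 43.46. These 2 genes took most of the summed level of the list in the mature libraries and lay lower in both elderly ones. The sum therefore does not describe the other genes of the list. Irf4 had no count, with 3 countable bases.

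In the list for V(D)J joining, switching and V gene transcription, 0 of 20 tested genes were called, with Pou2af1, the coactivator of octamer factors, at 259, 113, 436 and 344 counts. Of the 8 constant regions listed, 3 were found by symbol and tested, and Ighm and Ighg1 were called higher. Ighg1 and Ighg2c were carried by elderly 1, with 703 and 835 counts against 4 and 4 in elderly 2, and Ighg2c also had 188 counts in mature 2. In the T cell list, 1 of 7 tested genes was called higher (Cd3e, with 8, 0, 48 and 41 counts), at 4.54 and 6.21 CPM in mature and 18.4 and 10.9 CPM in elderly libraries.

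The kappa light chain pairs with the heavy chain, and its V genes lie on chromosome 6. The IG_V_gene transcripts of that chromosome also had a higher summed level in both elderly libraries. Of these 124 transcripts, 97 carry an Igkv and 4 a Gm symbol in release M1, so the set is not shown to be kappa alone. Of the 124, 64 were tested and 22 were called higher and 0 lower. Among all transcripts tested, 0.712% were called higher and 0.099% lower. The 124 had 88 and 62 mature counts against 2484 and 2747 elderly counts, so the filter can set a direction here too. Their summed level was 6.34 ± 1.51 CPM (SD, n = 2) at 3 months and 204 ± 23.8 CPM (SD, n = 2) at 24 months, and 7 and 3 against 39 and 29 were detected. Release M1 gives the same biotype to 109 transcripts on chromosome 14, at the T cell receptor alpha and delta locus, and of these 5 were tested and 0 called, with 5, 2, 30 and 4 counts in all. A difference between the loci was not tested.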

How the data were processed

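RNA of 4 libraries (2 mature, 2 elderly) was sequenced, and groups were taken from the titles in the labels. The study's methods give poly(A) selection with 2 named exceptions, processed as total RNA, of which the first is named by an age in weeks. Whether a mature library is among these exceptions is not settled by the sources used here. A difference in preparation between the ages therefore cannot be told apart from age. Per the labels and the study's methods, the authors trimmed reads with CutAdapt, mapped them with HISAT2 to mm9 and used featureCounts for counting. What they deposited are raw counts per Ensembl transcript, with no normalization. Strand and multiple-mapping settings are not given in the sources used here.

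Transcripts with more than 2 counts in all (42413) were tested with edgeR 4.0.16 in R 4.3.3 (TMM factors, quasi-likelihood test, 2-sided, no covariate). Standard errors are the log2 fold change over the root of F. Where both mature libraries were at 0, the fold is the elderly mean over the level of 3 counts per mature library. It is a limit for the mature level only and does not cover the spread between the elderly libraries. Ratios carry exact conditional 95% intervals for counting error. The alternatives were DESeq2 1.42.0, edgeR's exact test (dispersion 0.2), the robust fit, filterByExpr, no filter, library size alone, TMM from a table with no immunoglobulin, hemoglobin or histone genes, the replicate number as a block, other detection limits, and each library left out.

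The titles name the libraries mouse 1 and mouse 2, but the protocol gives 3 or 4 mice per group, so p-values measure only the spread between these libraries, which may be technical. Named members are the 3 highest of each library, the called members with the highest level and the largest fold, the leading member of each family and the highest members that were tested and not called. The others named were chosen after their values were seen. The members and lists were chosen with earlier results of these data known. Some genes of the lists are not reported here by name. RefSeq names came from GRCm38.p6, and sequences from the NCBI Build 37 genome.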

Additional observations from a re-analysis of the deposited data

How the results depend on the processing

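The count of V genes called higher was 19, and it was 21 with the exact test, 19 with the robust fit (14 of the same members), 24 without a filter, 19 with TMM without immunoglobulin genes, 8 with DESeq2, 7 with filterByExpr and 8 with library size alone. DESeq2 gave no adjusted p for 56 of 70 members. All 8 or 7 members called in the latter 3 were among the 19, and filterByExpr left 12 of the 19 untested. With each library left out in turn, the count ran from 0 (without elderly 1 or elderly 2) to 23, and the count called lower from 0 to 1. The log2 ratio of the summed level ran from 3.65 to 4.28 when a library was left out. Same-numbered libraries had deviations that correlated at 0.0506 over 20989 transcripts, so no pairing was seen over the table as a whole. A factor shared by same-numbered libraries for some genes was not tested. The replicate block gave 22 members called higher and 0 lower.

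Detection depends on its limit. At 1 count, 36, 23, 63 and 62 members were seen in mature 1, mature 2, elderly 1 and elderly 2, at 10 counts 1, 1, 25 and 17, and above 3 counts at an equal 87 V gene counts 4.37, 4.0, 9.15 and 6.67. Members shared at 1 count were 11 for the mature pair, 42 for the elderly pair and 29, 29, 17 and 20 between the ages, and at 10 counts 0, 9 and 1, 1, 0 and 0. Without its highest member, the top share fell to 6.93% in mature 1 and 13.0% in mature 2, the top 5 share of mature 2 was 47.8%, the effective number was 27.9 in mature 1 and 14.3 in mature 2, and IGHV1 held 36.3% in elderly 2.

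When a library was left out, the fitted log2 fold change of 9 named members changed sign. Its range was -1.16 to 8.08 for Ighv1-58, -0.59 to 8.69 for Ighv5-17, -3.48 to 4.96 for Ighv1-74, -2.33 to 2.77 for Ighv1-78, -4.75 to 4.47 for Ighv1-80, -4.75 to 3.74 for Ighv6-6, -4.83 to 4.26 for Ighv1-39, -1.50 to 0.72 for Ighv10-1 and -0.21 to 3.97 for Ighv12-3. Ighv1-58 alone of these had been called. The cause was not tested. The mature libraries, with 136 and 87 V gene counts, limit what can be said of single members at that age.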
